A study of Mus musculus with 15 samples.

Results

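The mitochondrial respiratory chain subunit genes were taken as all genes whose symbol starts with Nduf, Uqcr, Sdh followed by a to d, Cox4 to Cox8, or Atp5. The rule found 94 of the 18193 genes that had a probe set with exactly 1 symbol, and each gene was read from its probe set with the highest mean over all 15 arrays. They comprised 36 complex I genes, 4 complex II genes, 8 complex III genes, 13 complex IV genes, 17 ATP synthase genes, 13 assembly and related factors (the Ndufaf and Sdhaf genes and Cox7a2l), and the 3 muscle isoforms Cox6a2, Cox7a1 and Cox8b, which are described apart. A further 8 symbols, among them Ndufa11 and Ndufs6, lay only on probe sets shared with other genes and were not read. Complexes were assigned by the start of the symbol, so Ndufa4 and Ndufa4l2 are counted in complex I and Cox6b2, Cox7b2 and Cox8c in complex IV. Subunits encoded in mitochondrial DNA have symbols outside the rule and were not read. The members were chosen by name and not by their values.

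The series measured whole PDA30364 tumors, a mouse pancreatic ductal adenocarcinoma line grown under the skin of C57BL/6-Ly5.1 mice, snap frozen at day 26 after inoculation. In the combination group (n = 4) a daily dose of 30 mg/kg GDC-0623, a MEK inhibitor (MEKi), was given together with agonist anti-CD40 antibody (CD40 mIgG1, here CD40 Ab). In the MEKi group (n = 3) the inhibitor was given with control IgG, in the CD40 Ab group (n = 4) the antibody was given with the vehicle, and control mice (n = 4) had vehicle and control IgG. All 15 tumors came from 1 transplanted cell line and each array held a piece of 1 tumor. The mice were between 6 and 12 weeks old at inoculation, and antibody or IgG was given on days 3, 5 and 7 of treatment and again 1 day before the tumors were taken.

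The respiratory chain sits in the inner mitochondrial membrane. Complex I (NADH dehydrogenase) and complex II (succinate dehydrogenase) feed electrons from NADH and succinate to ubiquinone, complex III passes them to cytochrome c, complex IV (cytochrome c oxidase) hands them to oxygen, and ATP synthase uses the proton gradient that complexes I, III and IV build. A small number of catalytic subunits carry the redox centers and many small accessory subunits surround them, and some complex IV subunits have a separate isoform in skeletal muscle and heart.

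Promoter sequences of 78 of the 94 members were available from RefSeq (build GRCm38.p6, 250 bases before to 50 bases after the annotated start). The 7 printed here were picked by hand from the members whose values are described below. Capitals mark 4 motifs, searched on both strands. These were GCGCNTGCG, which the factor NRF1 binds, CCGGAAG, bound by ETS family factors including GABP, AAGATGGCG, bound by YY1, and CAGCTG, an E-box bound by myogenic factors.
Cox6a1, chr5:115348909-115349208, minus strand: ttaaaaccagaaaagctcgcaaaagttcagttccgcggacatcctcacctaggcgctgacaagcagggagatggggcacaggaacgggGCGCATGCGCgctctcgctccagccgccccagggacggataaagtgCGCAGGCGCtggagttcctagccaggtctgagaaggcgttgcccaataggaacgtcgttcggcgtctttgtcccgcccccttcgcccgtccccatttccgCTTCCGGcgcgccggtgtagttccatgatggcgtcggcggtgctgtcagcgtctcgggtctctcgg
Uqcrc1, chr9:108936398-108936697, plus strand: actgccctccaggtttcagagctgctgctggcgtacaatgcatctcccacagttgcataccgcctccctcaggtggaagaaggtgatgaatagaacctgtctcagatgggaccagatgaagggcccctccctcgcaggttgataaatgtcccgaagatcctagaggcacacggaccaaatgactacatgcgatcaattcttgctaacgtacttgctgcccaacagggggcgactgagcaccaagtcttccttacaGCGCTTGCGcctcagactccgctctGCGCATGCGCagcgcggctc
Ndufaf4, chr4:24897833-24898132, plus strand: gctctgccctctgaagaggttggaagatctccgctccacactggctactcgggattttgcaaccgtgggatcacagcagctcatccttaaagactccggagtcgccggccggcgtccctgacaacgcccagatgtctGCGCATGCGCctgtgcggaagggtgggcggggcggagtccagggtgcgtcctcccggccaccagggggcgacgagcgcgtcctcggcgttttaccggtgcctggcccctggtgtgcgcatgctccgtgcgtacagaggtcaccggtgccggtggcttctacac
Cox8a, chr19:7217567-7217866, minus strand: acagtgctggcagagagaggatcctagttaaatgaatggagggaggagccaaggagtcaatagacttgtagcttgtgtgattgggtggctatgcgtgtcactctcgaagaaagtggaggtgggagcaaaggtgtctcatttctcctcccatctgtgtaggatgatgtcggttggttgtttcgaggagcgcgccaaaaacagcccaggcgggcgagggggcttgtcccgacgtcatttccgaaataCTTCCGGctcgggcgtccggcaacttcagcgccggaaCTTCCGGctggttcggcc
Sdhaf1, chr7:30322326-30322625, minus strand: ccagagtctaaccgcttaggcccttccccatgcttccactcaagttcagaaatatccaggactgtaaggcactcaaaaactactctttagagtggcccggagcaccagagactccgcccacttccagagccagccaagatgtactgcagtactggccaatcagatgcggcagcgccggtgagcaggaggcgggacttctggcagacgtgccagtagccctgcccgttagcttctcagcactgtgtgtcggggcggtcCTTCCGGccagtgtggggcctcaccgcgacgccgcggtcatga
Cox8b, chr7:140900397-140900696, minus strand: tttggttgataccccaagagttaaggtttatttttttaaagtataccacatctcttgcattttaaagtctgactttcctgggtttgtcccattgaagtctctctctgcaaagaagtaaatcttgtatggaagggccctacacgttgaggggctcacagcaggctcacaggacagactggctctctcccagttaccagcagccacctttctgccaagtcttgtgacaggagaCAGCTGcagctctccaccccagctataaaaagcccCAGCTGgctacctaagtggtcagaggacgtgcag
Cox7a2l, chr17:83514284-83514583, minus strand: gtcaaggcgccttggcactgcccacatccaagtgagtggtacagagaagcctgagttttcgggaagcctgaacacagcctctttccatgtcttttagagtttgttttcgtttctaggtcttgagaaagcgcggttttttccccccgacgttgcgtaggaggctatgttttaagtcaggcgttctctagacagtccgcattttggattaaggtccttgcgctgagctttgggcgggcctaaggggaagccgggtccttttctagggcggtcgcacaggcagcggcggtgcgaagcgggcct
The promoters of the widely expressed Cox6a1 and Uqcrc1 held 2 NRF1 matches each, Cox6a1 with 1 ETS match besides, and Ndufaf4 held 1 NRF1 match, Cox8a held 2 ETS matches and Sdhaf1 held 1, the muscle isoform Cox8b held 2 E-boxes and neither of the first 2 motifs, Cox7a1, the other muscle isoform with an entry, held none of the 4, and Cox7a2l held none of the 4. Among described members not printed, Cox7a2, Cox5a, Ndufa3, Ndufb2, Ndufv1 and Uqcrfs1 also held none of the 4. Atp5e, Uqcr10, Sdha and Sdhb each held at least 1 match. The NRF1 motif was found in 33.3% of the 78 members and in 7.12% of the 27025 genes in the promoter table, and the ETS motif in 28.2% of members and 9.93% of all genes. The YY1 motif was in 8.97% of members and 1.64% of all genes, and the E-box in 7.69% of members and 18.3% of all genes. By group, the NRF1 motif was in 9 of 15 ATP synthase genes, 7 of 32 complex I genes and 1 of 9 complex IV genes, and in neither muscle isoform with an entry. These are letter matches in 300 bases, given as a description.

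The members differed little between arrays. The median of their SDs within groups was 0.0793 on the log2 scale, against 0.13 over all genes, and for genes with a mean of 10 or more it was 0.075 for 66 members and 0.0876 for all 1725 such genes. The mean over the 91 members other than the muscle isoforms was 10.22 ± 0.02 in combination tumors (SD, n = 4), 10.32 ± 0.11 in MEKi tumors (n = 3), 10.21 ± 0.03 in CD40 Ab tumors (n = 4) and 10.19 ± 0.03 in control tumors (n = 4). The MEKi arrays were unlike each other, at 10.2, 10.41 and 10.34, so that 1 of them lay within the range of the other groups and the other 2 above it. The mean of 8 tumor epithelium genes was 10.96 to 11.15 in combination tumors, 11.02 to 11.48 in MEKi tumors, 10.48 to 11.07 in CD40 Ab tumors and 10.5 to 10.99 in control tumors. All values are log2 RMA values, and RMA gives each array the same overall distribution, so a change stands relative to the other genes on the array. In whole tumors, fewer cells of a type and less RNA per cell cannot be told apart.

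**Figure D1:**
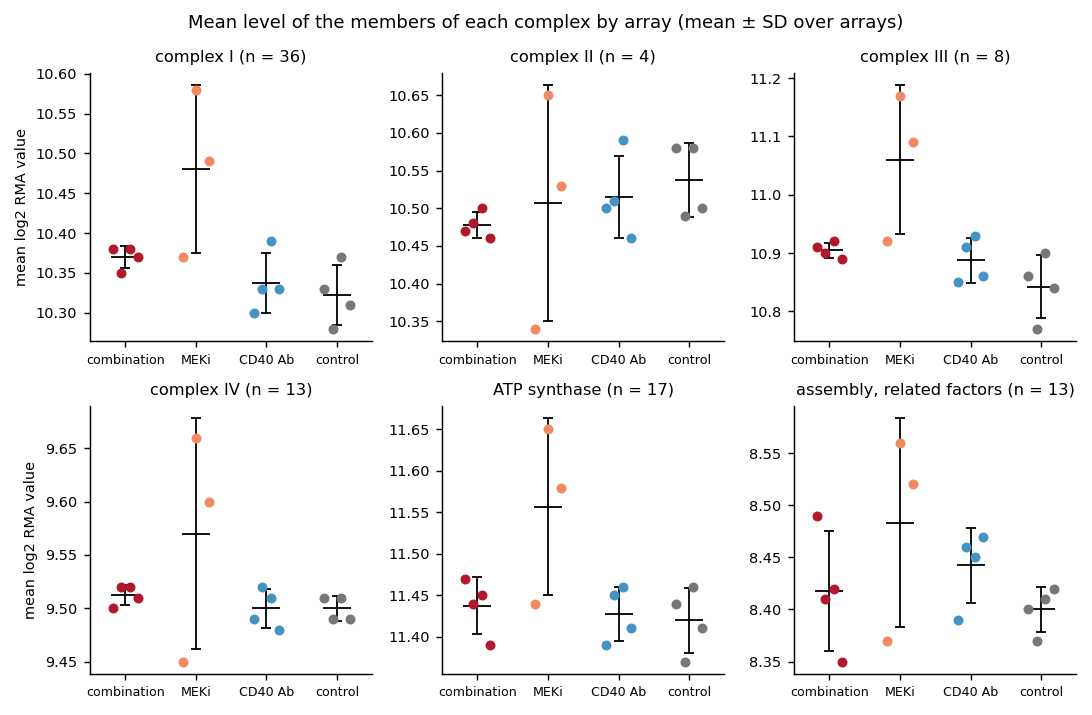
Mean log2 RMA value of the members of each complex (vertical axis) in each array, for combination, MEKi, CD40 Ab and control tumors, with the mean ± SD over arrays as bars. MEKi replicate 1 lay at or near the other groups in complexes I, III and IV and in ATP synthase, where MEKi replicates 2 and 3 lay above every other array, and in complex II the 4 groups overlapped.

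By complex, the mean of the 36 complex I genes was 10.37, 10.58 and 10.49 in the MEKi arrays and 10.28 to 10.37 in control arrays. Complex III stood at 10.92, 11.17 and 11.09 with MEKi and at 10.77 to 10.9 in controls, and ATP synthase at 11.44, 11.65 and 11.58 with MEKi against 11.37 to 11.46 in controls. Among the 5 complexes, complex III was the one whose MEKi and control arrays did not overlap. Complex II, at 10.34, 10.65 and 10.53 with MEKi and 10.49 to 10.58 in controls, overlapped. In combination arrays complex I stood at 10.35 to 10.38 and complex IV at 9.5 to 9.52, against 9.49 to 9.51 for complex IV in controls.

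MEK inhibition alone was set against control to ask what the inhibitor did without the antibody. Of the 94 members, 16 rose and 1 fell at an adjusted p under 0.05, while 77 did not pass (limma, p-values adjusted by Benjamini-Hochberg across the whole array). The background over all genes was 10.7% up and 10.4% down, so that the share of members that rose was above it and the share that fell was below it. The median log2 fold change was 0.14 over the members and -0.04 over all genes, and 75 of 94 members had a positive value. Those that rose changed by 0.25 to 0.64 on the log2 scale, so none of them doubled. In 38 members all MEKi arrays lay above all control arrays and in 3 below, where the background was 16.4% above and 19.3% below.

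**Figure D2:**
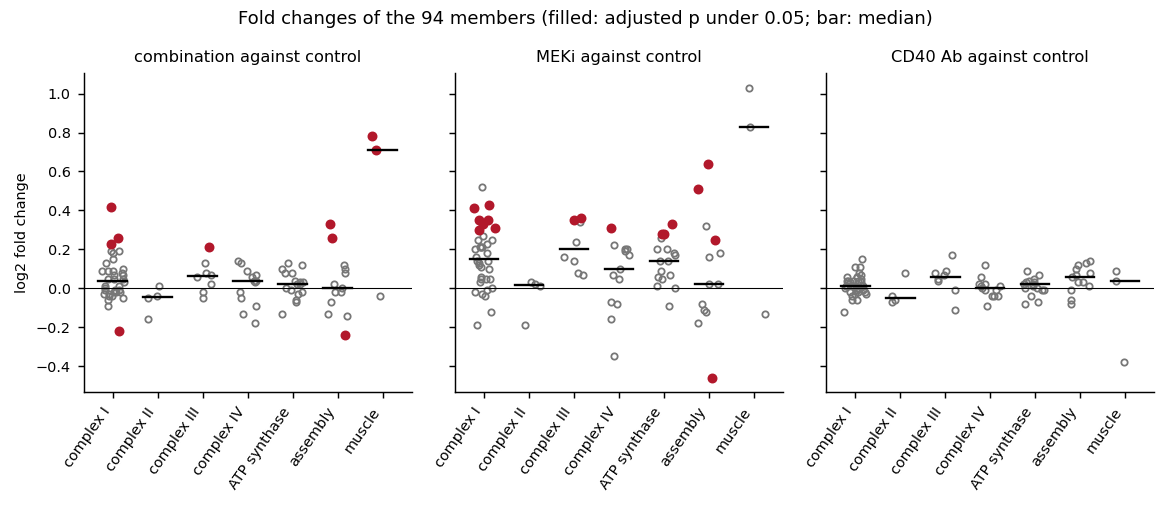
Log2 fold change of each of the 94 members (vertical axis) by complex, in combination, MEKi and CD40 Ab tumors against control. Filled points passed an adjusted p under 0.05 and bars are medians. The MEKi medians of complex I, complex III and ATP synthase lay at 0.15, 0.2 and 0.14, the combination medians at 0.04, 0.07 and 0.02, and no CD40 Ab point passed.

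In complex I, 7 of 36 genes rose with MEKi and none fell. All 7 (Ndufa1, Ndufa3, Ndufb1, Ndufb2, Ndufb3, Ndufb5 and Ndufs5) encode accessory subunits, which surround the catalytic core and carry no redox center. Ndufa3 read 11.9, 11.82 and 11.83 in MEKi tumors and 11.46, 11.37, 11.48 and 11.39 in control tumors. The groups were well apart in every array, with a log2 fold change of 0.43 (SE 0.07, adjusted p = 0.00511). Ndufb2 read 10.74, 10.93 and 10.88 with MEKi and 10.41, 10.34, 10.52 and 10.49 in controls, a change of 0.41 (SE 0.08, adjusted p = 0.0121). For both Ndufa3 and Ndufb2, 1 of the 2 dimmer probe sets also rose past the threshold and 1 did not rise. None of the core subunit genes of complex I among the members passed. Ndufs1, the largest iron-sulfur subunit, read 9.32, 9.55 and 9.55 with MEKi and 9.49, 9.49, 9.5 and 9.4 in controls, so the groups overlapped (log2 fold change 0.0, SE 0.08, adjusted p = 0.984). Ndufv1, which binds NADH and FMN, read 10.73, 10.95 and 10.9 with MEKi against 11.02, 10.98, 11.14 and 11.06 in controls. All MEKi arrays of Ndufv1 lay below the controls, and the change of -0.19 (SE 0.08) did not pass the test (adjusted p = 0.158). Over the 6 nuclear core genes Ndufs1, Ndufs3, Ndufs7, Ndufs8, Ndufv1 and Ndufv2, a textbook grouping made after the values were seen, the median was 0.03 with none past the threshold, and over the other 30 complex I genes it was 0.2 with 7 past it. The difference between these 2 sets was not tested.

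The other complexes held 6 of the members that rose. In complex III, Uqcr10 and Uqcrq, both small accessory subunits, rose by 0.36 (SE 0.1, adjusted p = 0.0398) and 0.35 (SE 0.09, adjusted p = 0.0295). Uqcr10 read 10.25, 10.53 and 10.51 in MEKi tumors and 10.14, 9.94, 10.15 and 10.06 in control tumors. The 2 dimmer probe sets of Uqcr10 gave -0.14 and -0.03, and the 3 dimmer sets of Uqcrq gave -0.15, 0.03 and -0.08, none past the threshold. Uqcrc1, a core protein of complex III, and Uqcrfs1, the Rieske iron-sulfur protein, had values of 0.07 (adjusted p = 0.634) and 0.14 (adjusted p = 0.317). In complex IV only Cox6c, a small subunit with no redox center, rose. It read 12.13, 12.25 and 12.12 in MEKi tumors and 11.82, 11.81, 11.9 and 11.88 in control tumors, a change of 0.31 (SE 0.07, adjusted p = 0.0198). Cox5a and Cox4i1, widely expressed subunits, had values of 0.05 and 0.07, and Cox4i2, the lung and hypoxia isoform of Cox4i1, -0.07.

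In ATP synthase, Atp5e, Atp5j and Atp5k rose and 14 of 17 genes did not pass. Atp5e, the epsilon subunit of the central stalk, read 10.92, 11.01 and 10.99 with MEKi against 10.71, 10.61, 10.65 and 10.62 in controls, a change of 0.33 (SE 0.07, adjusted p = 0.0144). Atp5j belongs to the peripheral stalk and Atp5k to the membrane part, and both rose by 0.28. The catalytic pair Atp5a1 (alpha) and Atp5b (beta) gave -0.09 (SE 0.09) and 0.01 (SE 0.08), neither past the threshold, with overlapping groups. In complex II no gene passed. Sdha, the flavoprotein that oxidizes succinate, read 10.23, 10.45 and 10.31 with MEKi and 10.54, 10.5, 10.59 and 10.44 in controls, a value of -0.19 (SE 0.08, adjusted p = 0.155), and Sdhb, its iron-sulfur partner, had 0.03.

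The largest changes past the threshold were in the assembly and related factors, where 3 of 13 rose and 1 fell with MEKi. Sdhaf1, needed to put the iron-sulfur clusters into Sdhb, read 7.9, 7.9 and 7.96 in MEKi tumors and 7.4, 7.15, 7.37 and 7.21 in control tumors. Its groups were far apart, with a log2 fold change of 0.64 (SE 0.08, 1.56-fold, adjusted p = 0.00236), while none of the 4 complex II subunits passed. Ndufaf4, a complex I assembly factor, read 9.96, 9.78 and 10.15 with MEKi against 9.49, 9.53, 9.37 and 9.42 in controls (log2 fold change 0.51, SE 0.1, adjusted p = 0.0111), and Ndufaf8 rose by 0.25. Cox7a2l, a protein related to Cox7a2, was the member that fell. It read 10.91, 11.07 and 10.69 in MEKi tumors and 11.34, 11.28, 11.4 and 11.4 in control tumors, a fall of 0.46 on the log2 scale (SE 0.1, adjusted p = 0.016). Its other 2 probe sets also fell with MEKi, by 0.44 and 0.43.

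**Figure D3:**
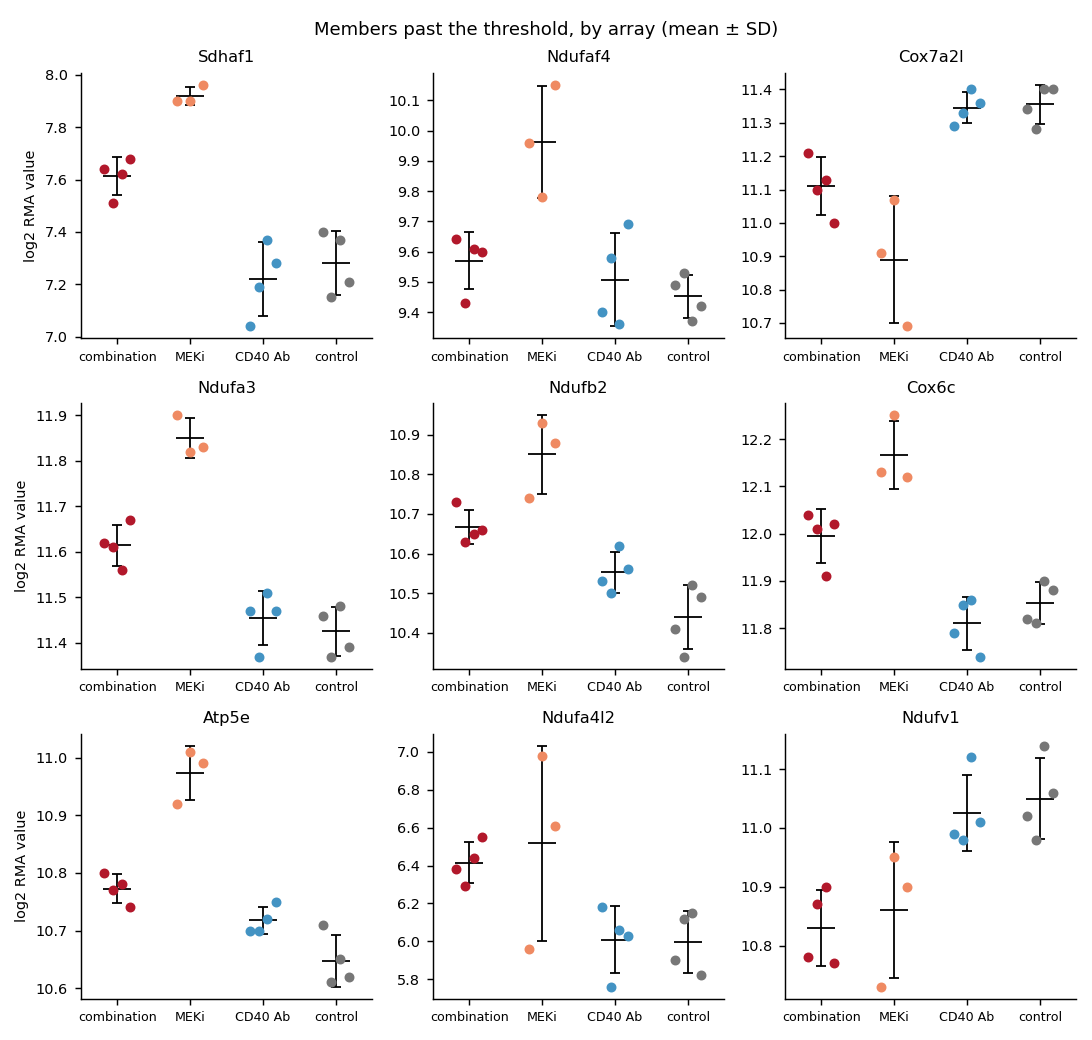
Log2 RMA values (vertical axis) of 9 members that passed the threshold in at least 1 comparison, by array, in combination, MEKi, CD40 Ab and control tumors, with mean ± SD bars. For Sdhaf1 the MEKi arrays (7.9 to 7.96) lay above the combination arrays (7.51 to 7.68), and these above the control arrays (7.15 to 7.4), and for Cox7a2l the combination arrays (11 to 11.21) and the MEKi arrays (10.69 to 11.07) lay below the control arrays (11.28 to 11.4).

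The 3 MEKi arrays did not share the shift equally. Relative to the control mean, the median of the 91 members other than the muscle isoforms was 0.02 in MEKi replicate 1, 0.23 in replicate 2 and 0.16 in replicate 3. In these arrays 47, 81 and 74 members lay above the control mean. That count was 11 to 76 in control arrays, 33 to 76 in CD40 Ab arrays and 51 to 62 in combination arrays. Medians there were -0.04 to 0.05, -0.03 to 0.06 and 0.02 to 0.05. The 16 members that rose were above the control mean in all 3 MEKi arrays, by medians of 0.27, 0.39 and 0.36. They were chosen by their values in these same arrays, so this is not a separate result. MEKi replicate 1 also had the highest mean of 9 leukocyte genes (8.05, against 6.25 and 6.87 in the other MEKi arrays and 6.21 to 6.46 in controls) and of 20 skeletal muscle genes, and the lowest mean of 9 mitosis genes (7.05, against 8.32 and 8.58). Without it, 28 members rose and 1 fell. Markers of other cells moved with MEKi in all 3 arrays. The mean of 9 fibroblast genes such as Col1a1 and Dcn was 10.74 to 11.64 in MEKi tumors and 9.11 to 9.43 in control tumors, with 8 of 9 past the threshold upward, and that of 12 skin keratinocyte and hair follicle genes was 6.22 to 7.21 with MEKi and 4.84 to 6.06 in controls, with 6 of 12 up and the others, Lor among them (5.09 to 5.65 with MEKi and 4.95 to 5.51 in controls), not past the threshold. The mitosis genes, at 7.05 to 8.58 with MEKi and 8.91 to 9.46 in controls, had 5 of 9 past the threshold downward. The tumor epithelium mean was also higher in every MEKi array than in every control array, with 1 of 8 genes up (Epcam, 10.31 to 11.42 with MEKi and 6.67 to 9.11 in controls, a change of 2.81) and 1 down. Without any 1 of the other 6 arrays the count of all calls was 6 to 9. The part of these other cells in the result was not tested. All MEKi animals carried numbers from 10000 upward and 3 of 4 control animals numbers below it. With this number series as a covariate the median was 0.14, but that fit in effect sets MEKi against control replicate 4 alone. It rests on 1 control array, so it cannot decide what part the series has. The signal of Gapdh probe sets at the 3′ end minus the 5′ end, a sign of RNA integrity, was -0.04 to -0.01 in MEKi arrays and -0.06 to -0.04 in control arrays.

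The combination was then set against control. Here 8 members rose and 2 fell, against a background of 10.3% up and 8.72% down over all genes, so the share that rose was close to the background and the share that fell below it. The median over the members was 0.03 (-0.02 after centring each array on its median), and over all genes -0.04. In 16 members the combination arrays lay above all control arrays and in 6 below, with a background of 12.3% and 14.4%. Both this comparison and the MEKi comparison use the same 4 control arrays. Sdhaf1, Ndufb2 and Uqcrq rose and Cox7a2l fell in both, and each value was smaller in size in the combination. The combination call of Uqcrq was lost in every fit that left out 1 array (adjusted p = 0.0509 to 0.0873), and that of Cox7a2l in 6 of 8 (adjusted p up to 0.0836). None of these 4 members passed in the combination against MEKi. In the combination 4 of the 9 fibroblast genes and 5 of the 9 leukocyte genes rose and 5 of the 9 mitosis genes fell against control, with fibroblast means of 9.74 to 10.33 and leukocyte means of 6.82 to 7.7, and their part in these values was not tested.

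Sdhaf1 read 7.64, 7.51, 7.62 and 7.68 in combination tumors and 7.4, 7.15, 7.37 and 7.21 in controls, with no overlap (log2 fold change 0.33, SE 0.07, adjusted p = 0.0176). Cox7a2l read 11.21, 11.1, 11.13 and 11 in the combination and 11.28 to 11.4 in controls, a fall of 0.24 (SE 0.06, adjusted p = 0.0321). Ndufa4l2, an isoform of Ndufa4 known as a hypoxia-induced gene that lowers complex I activity and placed in complex I here by its symbol, read 6.38, 6.29, 6.44 and 6.55 in combination tumors and 5.9, 6.12, 6.15 and 5.82 in controls. All combination arrays were above all controls (log2 fold change 0.42, SE 0.09, adjusted p = 0.0157). In MEKi tumors Ndufa4l2 read 5.96, 6.98 and 6.61, which overlapped the controls, and its value of 0.52 (SE 0.22) did not pass. Ndufc1 and Ndufb2, accessory subunits of complex I, rose by 0.26 and 0.23, Uqcrq by 0.21 and Ndufaf3, an assembly factor, by 0.26. Ndufv1 read 10.78, 10.87, 10.9 and 10.77 in combination tumors against 11.02, 10.98, 11.14 and 11.06 in controls, and fell by 0.22 (SE 0.06, adjusted p = 0.0418). No complex II, ATP synthase or widely expressed complex IV gene passed. Sdha, Atp5a1 and Cox4i2 had values of -0.16, -0.13 and -0.18 with every combination array below every control array, and adjusted p of 0.102, 0.203 and 0.0961. Ndufs1, Sdhb, Uqcrc1, Uqcrfs1, Cox5a, Cox4i1 and Atp5b had values between -0.09 and 0.06 and overlapping groups. Leaving out 1 array at a time left 2 to 7 calls, the fewest without control replicate 1. The adjusted p then reached 0.107 for Ndufv1, 0.0518 for Ndufa4l2 and 0.0483 for Sdhaf1.

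Of the 3 muscle isoforms, all low in control tumors, Cox6a2 and Cox8b rose in the combination and Cox7a1 did not pass. Cox6a2 read 6.2, 7.06, 6.55 and 6.02 in combination tumors, 7.46, 6.16 and 6.09 in MEKi tumors, 5.77, 5.81, 5.93 and 5.82 in CD40 Ab tumors and 5.71, 5.55, 5.93 and 5.78 in control tumors. Every array with the inhibitor was above every array without it, and the change in the combination against control was 0.71 (SE 0.2, adjusted p = 0.0405). Cox8b read 5.44, 6.28, 5.66 and 5.45 in combination tumors, 7.53, 5.23 and 5.12 in MEKi tumors, 5.62, 4.63, 4.77 and 4.86 in CD40 Ab tumors and 4.74, 4.71, 5.21 and 5.06 in control tumors. It rose by 0.78 (SE 0.19, adjusted p = 0.0251) in the combination against control. When 1 array was left out, the adjusted p of this comparison reached 0.102 for Cox6a2 and 0.0756 for Cox8b, so neither call held in every fit. In MEKi tumors the values were 0.83 (SE 0.31, adjusted p = 0.109) for Cox6a2 and 1.03 (SE 0.53, adjusted p = 0.233) for Cox8b, carried mainly by MEKi replicate 1. Without this array Cox6a2 had a value of 0.38, now past the threshold (adjusted p = 0.0491), and Cox8b one of 0.24.

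Cox7a1 read 5.63, 5.95, 5.46 and 5.66 in combination tumors, 6.29, 5.72 and 4.75 in MEKi tumors, 5.62, 5.52, 5.2 and 4.98 in CD40 Ab tumors and 5.78, 5.6, 5.87 and 5.6 in control tumors. These groups overlapped, with values of -0.04 (SE 0.11) for the combination, -0.13 (SE 0.31) for MEKi and -0.38 (SE 0.14, adjusted p = 0.359) for CD40 Ab against control. The widely expressed counterparts showed no rise past the threshold. Cox6a1 read 13.3 to 13.36 in the combination and 13.33 to 13.47 with MEKi, against 13.16 to 13.23 with CD40 Ab and 13.18 to 13.2 in controls. Its values of 0.13 (adjusted p = 0.114) and 0.22 (adjusted p = 0.0654) were small, and the arrays with the inhibitor did not overlap those without. Cox7a2 and Cox8a had values of 0.04 and 0.09 in the combination and 0.17 and 0.2 with MEKi, and did not pass.

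**Figure D4:**
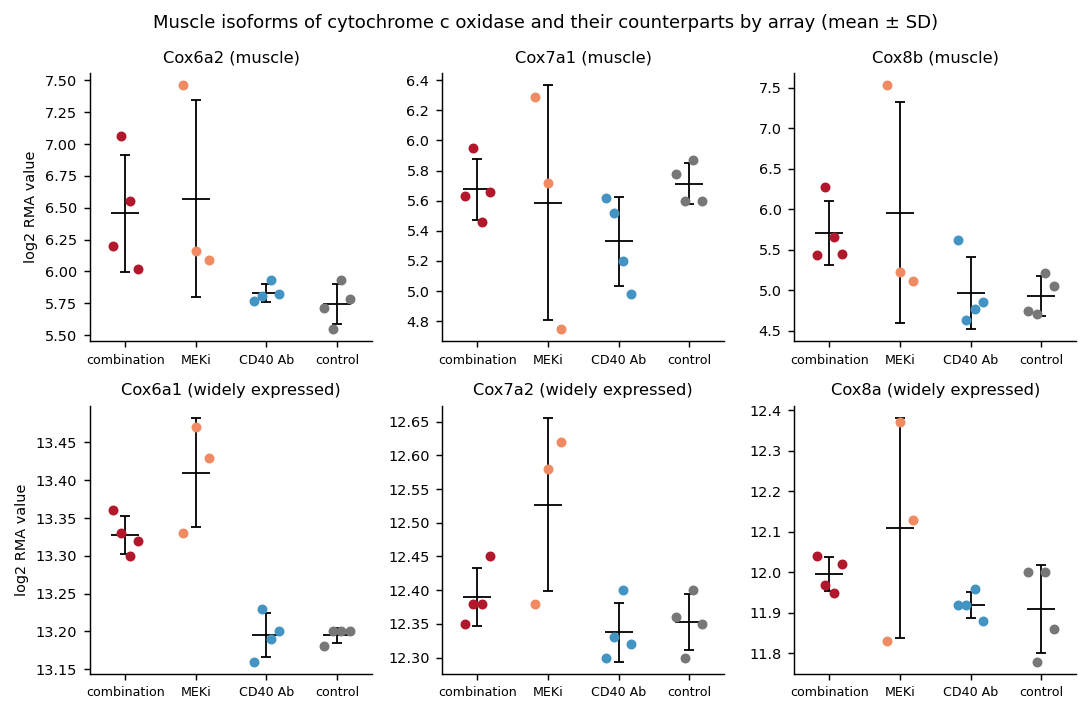
Log2 RMA values (vertical axis) of the muscle isoforms Cox6a2, Cox7a1 and Cox8b and of their counterparts Cox6a1, Cox7a2 and Cox8a by array, in combination, MEKi, CD40 Ab and control tumors, with mean ± SD bars. MEKi replicate 1 was the highest array for Cox6a2 (7.46) and Cox8b (7.53), and the axes of the panels differ in range.

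Skeletal muscle genes were read in the same arrays. The mean of the 20 skeletal muscle genes was 7.81, 8.79, 8.03 and 7.37 in combination tumors, 9.55, 7.03 and 7.16 in MEKi tumors, 4.79, 4.53, 6.09 and 5.4 in CD40 Ab tumors and 5.95, 4.52, 6.5 and 6.15 in control tumors. The difference was 2.22 for the combination against control (exact permutation test, two-sided, p = 0.0286, adjusted p = 0.0714 over 5 comparisons) and 2.13 for MEKi against control (exact p = 0.0571, adjusted p = 0.0952). Each is the smallest p its group sizes allow, so 3 arrays against 4 could not pass 0.05 whatever their values. Of the 20 genes, 18 rose in the combination and 4 with MEKi. The arrays with the highest means of the muscle isoforms, MEKi replicate 1 at 7.09 and combination replicate 2 at 6.43, also had the highest means of the skeletal muscle genes. Brown adipocyte genes, which mark another tissue rich in mitochondria, had a mean of 3.82 to 3.96 in combination tumors, 4.06 to 4.33 in MEKi tumors, 3.86 to 4.29 in CD40 Ab tumors and 3.86 to 4.21 in control tumors, and 1 of 4, Elovl3, rose with MEKi by 0.8 (4.19 to 4.55, against 3.49 to 3.79 in controls). The mean of 7 adipocyte genes was 6.11 to 8.37 in combination, 5.61 to 6.25 in MEKi, 5.92 to 8.12 in CD40 Ab and 5.87 to 6.41 in control tumors. CD40 Ab replicate 1, the highest array of its group for Cox8b (5.62), had an adipocyte mean of 8.12 and a skeletal muscle mean of 4.79. The part of muscle or other tissue in the isoform values was not tested.

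**Figure D5:**
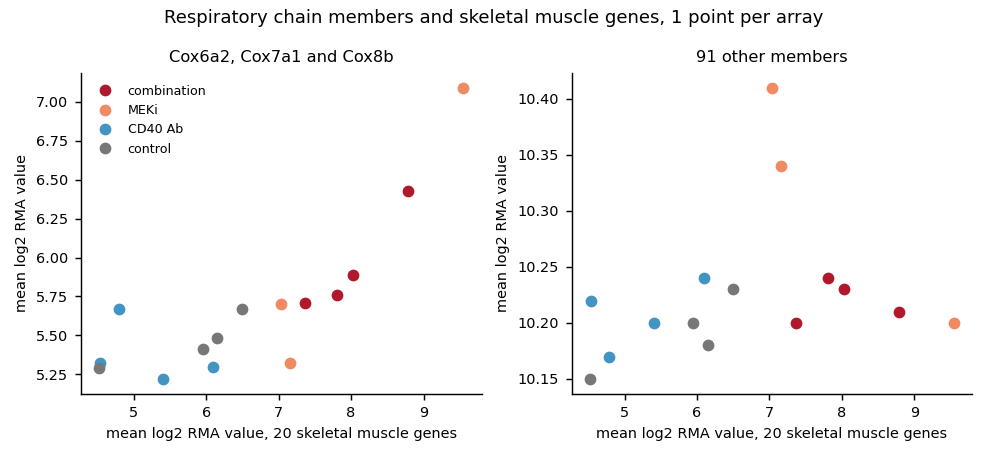
Mean log2 RMA value of Cox6a2, Cox7a1 and Cox8b (left, vertical axis) and of the 91 other members (right, vertical axis) against the mean of 20 skeletal muscle genes (horizontal axis), 1 point per array. MEKi replicate 1 and combination replicate 2 lay highest on both axes at left, and at right the 2 highest arrays were MEKi replicates 2 and 3, at 7.03 and 7.16 on the muscle axis.

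The antibody alone left the members near the control level. No member rose or fell against control, where the background was 1.01% up and 0.0495% down over all genes. At an unadjusted p under 0.05 there were 4 members (Cox7a1, Ndufb1, Sdhaf2 and Uqcrq, named after their values were seen). The values ranged from -0.38 to 0.17 with a median of 0.01, and in 2 members the groups did not overlap, both with the antibody arrays above (background 4.69% above and 3% below). Ndufs1, Ndufv1, Sdha, Sdhb, Uqcrc1, Uqcrfs1, Cox5a, Cox4i1, Cox4i2, Atp5a1 and Atp5b had values between -0.07 and 0.09 with SEs of 0.06 to 0.07. Sdhaf1 read 7.04, 7.19, 7.37 and 7.28 in CD40 Ab tumors and Cox7a2l 11.29, 11.33, 11.4 and 11.36, both within or close to the control range.

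Combination tumors were compared with the tumors given 1 agent. Against MEKi, no member passed (background 1.38% up and 2.65% down), although 19 did at an unadjusted p under 0.05. The median was -0.1 and 81 of 94 members had a negative value, against a median of 0.01 over all genes. In 29 members all combination arrays were below all MEKi arrays and in none above, where the background was 10.8% below and 8.77% above. In complex I, 33 of 36 values were negative. Ndufs1, Ndufv1, Sdha, Sdhb, Uqcrc1, Uqcrfs1, Cox5a, Atp5a1, Atp5b and both Cox4i isoforms had values between -0.2 (Uqcrfs1) and 0.03 (Sdha). Their SEs were 0.07 to 0.1, and none passed. The muscle isoforms Cox6a2, Cox7a1 and Cox8b had values of -0.11, 0.09 and -0.25, with SEs of 0.37, 0.32 and 0.55, and their counterparts Cox6a1, Cox7a2 and Cox8a of -0.08, -0.14 and -0.11. All combination animals had numbers below 10000 and all MEKi animals numbers from 10000 upward, so this series and the antibody cannot be told apart. When all 15 arrays were fitted together, 10 members fell in the combination against MEKi.

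Against CD40 Ab, 2 members rose in the combination and none fell (background 3.69% up and 2.52% down). Sdhaf1 rose by 0.39 (SE 0.08, adjusted p = 0.0307) and Ndufa4l2, at 6.18, 5.76, 6.06 and 6.03 in CD40 Ab tumors, by 0.41 (SE 0.1, adjusted p = 0.0493). Both are genes that also rose in the combination against control. In 14 members the combination arrays lay above the CD40 Ab arrays and in 5 below (background 7.26% and 10.1%). Of Ndufs1, Ndufv1, Sdha, Sdhb, Uqcrc1, Uqcrfs1, Cox5a, Atp5a1, Atp5b and the Cox4i isoforms none passed. Their values lay between -0.2 (Ndufv1, adjusted p = 0.113) and 0.06 (Cox5a). Cox6a2, Cox7a1 and Cox8b had values of 0.63, 0.35 and 0.74 (adjusted p = 0.0996, 0.225 and 0.119), and Cox6a1, Cox7a2 and Cox8a of 0.13, 0.05 and 0.08. The call of Sdhaf1 was lost in 6 of 8 fits that left out 1 array and that of Ndufa4l2 in 7 of 8, the adjusted p reaching 0.0822 and 0.118.

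The interaction asks whether the antibody had another effect with the inhibitor than without it, and was computed as the combination minus MEKi, less CD40 Ab minus control. It passed for 1 member, with a negative value, and for none with a positive one (background 2.56% down and 2% up). Ndufaf2, a complex I assembly factor, read 6.94, 6.86, 6.89 and 6.73 in combination tumors, 7.07, 7.1 and 7.42 in MEKi tumors, 6.93, 7.09, 7.07 and 6.94 in CD40 Ab tumors and 6.84, 6.86, 6.93 and 6.88 in control tumors. The MEKi arrays were the highest on average and overlapped the CD40 Ab arrays, and the interaction was -0.47 (SE 0.12, adjusted p = 0.0417). At an unadjusted p under 0.05 there were 18 members, and the median over the 94 was -0.12, against 0 over all genes. The Ndufaf2 call was lost in 11 of 15 fits that left out 1 array. All combination animals had numbers below 10000 and all MEKi animals numbers from 10000 upward. Within this pair the number series and the antibody cannot be told apart.

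Genes of related pathways were read the same way. A further 36 respiratory chain genes have symbols that the rule does not cover. They were Cycs (cytochrome c), Cyc1, Etfa, Etfb and Etfdh, and assembly and related factors. Of these 36, 3 rose and none fell with MEKi, and 1 fell with the combination against control. Cyc1 had a value of 0.16 (adjusted p = 0.347) with MEKi. Those that rose with MEKi were Sco2 and Cox17, copper chaperones of complex IV, by 0.39 and 0.3, and Ecsit, a complex I assembly and signaling protein, by 0.48, and Atpaf2, an ATP synthase assembly factor, fell by 0.21 in the combination. Of 16 citric acid cycle genes, Ogdh rose by 0.36 with MEKi, and Idh3g and Suclg2 fell by 0.29 and 0.28 in the combination. Of 76 mitochondrial ribosome genes, 10 rose and 2 fell with MEKi, and 3 rose and 7 fell with the combination. Over all genes, 10.7% rose and 10.4% fell with MEKi, and 10.3% rose and 8.72% fell with the combination. For the ribosome genes the share up with MEKi (13.2%) and the share down with the combination (9.21%) were near this background. Their share down with MEKi (2.63%) and their share up with the combination (3.95%) were below the background. For the 36 respiratory chain genes the share up with MEKi was 8.33%, also below the background. These genes and those of the next paragraph were named after their values were seen.

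Among 13 regulators of mitochondrial biogenesis, 2 rose and 2 fell with MEKi, and 1 rose and 2 fell with the combination (15.4% up and 15.4% down with MEKi, 7.69% up and 15.4% down with the combination, beside the shares over all genes given above). Ppargc1b, the coactivator PGC-1beta, read 5.88, 6.03, 6.08 and 6.26 in combination tumors, 6.11, 7.52 and 6.78 in MEKi tumors and 4.92, 5.14, 5.18 and 5.06 in control tumors. All arrays with the inhibitor lay above all controls, with a change of 1.73 (SE 0.28, adjusted p = 0.00534) for MEKi and 0.99 (SE 0.09, adjusted p = 0.000273) for the combination. Gabpa, the DNA-binding part of GABP, read 9.29, 9.23, 9.23 and 9.12 in combination tumors, 9.13, 8.94 and 8.92 in MEKi tumors and 9.64, 9.6, 9.41 and 9.56 in control tumors. It fell by 0.56 (SE 0.09, adjusted p = 0.005) with MEKi and by 0.33 (SE 0.07, adjusted p = 0.0117) with the combination. Nrf1, the factor whose motif is shown above, fell by 0.28 (SE 0.06, adjusted p = 0.0116) with the combination and had a value of -0.14 (adjusted p = 0.215) with MEKi. Polg, the mitochondrial DNA polymerase, rose by 0.26 with MEKi and its accessory subunit gene Polg2 fell by 0.63. Ppargc1a, Esrra and Tfam did not pass against control in MEKi or combination tumors. Among the 14 members that rose with MEKi and had a promoter entry, 4 held the NRF1 motif and 5 the ETS motif, or 28.6% and 35.7%, beside 33.3% and 28.2% over all 78 members.

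Over the 5 comparisons between groups, 23 members passed in at least 1 (24.5%, beside 30.2% of all genes) and 71 in none. Of the 71, 3 (Cox6b2, Cox7b2 and Ndufb4) had a mean log2 value under 5. Each of the 3 had only 1 probe set, and a dim probe set and a gene with little RNA cannot be told apart here. Ndufb4 (3.21) lay below the complex I median of 10.94, and Cox7c (6.37) below the complex IV median of 11.94. Both count in the means of their complexes.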

How the data were processed

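Whole tumor RNA was labeled with the GeneChip 3′IVT Plus kit and hybridized to Affymetrix mouse expression arrays (15 arrays, 45101 probe sets). The deposited values are log2 values that the authors made with RMA, which corrects background, quantile-normalizes and summarizes probes; the version is not given in the sources used here. The table gives no counts, so the number of arrays limits the precision. Groups came from the treatment labels, and animals are the replicates. After removal of 64 control probe sets, 45037 were fitted with limma 3.58.1 (R 4.3.3), with the arrays of the 2 groups compared, or all 15 for the interaction, a two-sided moderated test and p-values adjusted by Benjamini-Hochberg across the whole array (threshold 0.05). The fit was tested on simulated data. Probe sets were named from the platform annotation (34945 with 1 symbol, 932 with several, 9160 with none). Of the members, 43 were read from probe sets of the x, s or a kind, which can match related transcripts. In each comparison and complex the largest rise and fall past the threshold without overlap was named. Isoform pairs and Ndufs1, Ndufv1, Sdha, Sdhb, Uqcrc1, Uqcrfs1, Cox5a, Atp5a1 and Atp5b were given in every comparison. The members, lists and tests were chosen with earlier results of these data known. Alternatives covered the fit, scaling, probe set choice, pairing, animal numbers, muscle level and single arrays.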

Additional observations from a re-analysis of the deposited data

Results flagged for a closer look

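In 5 of 102 sets of 4 arrays examined, 1 array stood far from the other 3, and chance gives about 1 in 20 such sets. Uqcrc1 was at 10.97 in combination replicate 4, below 11.1 to 11.12 in the other combination arrays, and at 11.15 in CD40 Ab replicate 3, above 11.08 to 11.09. Sdha was at 10.3 in combination replicate 1, below 10.38. Ndufs1 was at 9.4 in control replicate 4, below 9.49 to 9.5, and Cox6a1 at 13.18 in control replicate 1, below 13.2. For Ndufaf2 the interaction of antibody and inhibitor passed the threshold at -0.47 on the log2 scale, with an adjusted p of up to 0.0838 without 1 array.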

How the results depend on the processing

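Counts of members called moved with the settings. Only CD40 Ab against control kept its count, 0, under every alternative run. For the combination against control (10 calls) the count was 5 with all 15 arrays in 1 fit, 16 with an intensity trend and robust prior, 6 with probe sets of the plain kind alone, 4 with the replicate block, 4 with the animal number series as a covariate and 4 in animals numbered under 10000 alone, 0 with the muscle mean as a covariate, 0 at an adjusted p under 0.01, and 2 to 7 without 1 array. For MEKi against control (17 calls) the count was 35 with all 15 arrays in 1 fit, 31 with the trend and robust prior and 11 with plain probe sets. The replicate block gave 1, an adjusted p under 0.01 gave 2 and median centring 11. Leaving out dim probe sets gave 28 and leaving out 1 array 6 to 29. The series covariate and the fit of animals numbered from 10000 alone both set MEKi against control replicate 4 alone, so no count is given. For the combination against MEKi (0 calls), all 15 arrays gave 10, the trend and robust prior 1, the mean over probe sets 2, adjustment over genes 1, the muscle covariate 9, and leaving out 1 array 0 to 1, and the animal number series could not be fitted. For the combination against CD40 Ab (2 calls), all 15 arrays, median centring, a further quantile normalization, plain probe sets, the series covariate and animals under 10000 each gave 1, the trend and robust prior 6, the replicate block, muscle covariate and 0.01 each 0, and leaving out 1 array 0 to 3. For the interaction (1 call), the trend and robust prior gave 6, the mean over probe sets 3, adjustment over genes and leaving out dim probe sets 5 each, median centring, quantile normalization, replicate block, series, muscle covariate and 0.01 each 0, and leaving out 1 array 0 to 6. Deviations of same-numbered arrays of different groups correlated at -0.278 to 0.207, with 9 of 21 above 0.1, and those of other pairs at -0.249 to 0.22, with 14 of 63 above 0.1. The labels do not state a pairing, and these correlations cannot decide it because the pairs share arrays. The main fits used no pairing, and the replicate block is given among the alternatives. The fits within 1 animal series were added after seeing the data. The cause of these shifts was not tested.

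Median centring moved the combination median over the members to -0.02 and left the MEKi median at 0.13. Of the results for named genes, those that changed sign were these. With plain probe sets, Uqcrq gave -0.01 (combination against control) and Uqcr10 -0.14 (MEKi against control). With the muscle covariate, whose own values did not overlap between combination (7.37 to 8.79) and control arrays (4.52 to 6.5) so that the 2 cannot be told apart, Cox8b gave -0.42 and Cox6a2 -0.17 (combination against control), Cox6a2 -0.02 and Cox8b -0.12 (MEKi against control), and Cox6a2 -0.48, Cox7a1 -0.19 and Cox8b -0.77 (combination against CD40 Ab). With the replicate block, Cox6a2 gave 0.03 (combination against MEKi). Without 1 array, Cox6a2 spanned -0.35 to 0.33, Cox7a1 -0.33 to 0.44 and Cox8b -0.67 to 0.53 (combination against MEKi), Cox7a1 -0.13 to 0.03 (combination against control) and -0.48 to 0.29 (MEKi against control), and Cox8b -0.18 to 0.15 (CD40 Ab against control). Sdhaf1 in MEKi against control passed in each fit without 1 array (0.59 to 0.68). With the series covariate its value was 0.71, in effect against control replicate 4 alone, as in animals from 10000 alone.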
